A study of Mus musculus with 47 samples.

Results

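Brown fat of mice with HT1080 tumours was compared between animals given 3P10, an antibody against the receptor GFRAL, and animals given the control antibody IgG1. The libraries were chosen by the tissue, tumour and treatment in their labels: 6 brown fat libraries of 3P10 mice (replicates 1 to 6) and 5 of IgG1 mice (replicates 1 to 5), 11 of the 47 libraries of the study. All mice had a C57Bl6 background. Both groups had been inoculated with HT1080, a human fibrosarcoma cell line, and received their antibody at 3 mg/kg each week from the day of inoculation, and the tissue was taken on day 21. A further 6 brown fat libraries came from mice without a tumour (NTB), for which the labels give no antibody. They entered the model fit to estimate the spread, and their values are given for reference. The labels do not give the age, sex or immune status of the animals, nor whether tissue of several animals was pooled.

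GDF15 is a circulating hormone of the TGF-beta superfamily that rises in many tumour-bearing and stressed states. Its receptor GFRAL is made by neurons of the hindbrain and signals with the kinase RET, and GDF15 reduces food intake and body weight through it. Brown fat burns fatty acids in mitochondria that UCP1 uncouples, so that the energy of the respiratory chain leaves as heat. Noradrenaline from sympathetic nerves drives it through beta-adrenergic receptors, cyclic AMP and lipolysis.

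Expression was read from the 3-prime ends of transcripts (QuantSeq), and levels are given as CPM, the reads of a gene scaled to a library of 1 M reads after TMM normalisation. Library totals ran from 0.897 to 1.36 M reads in IgG1 and from 0.998 to 2.46 M in 3P10, where replicate 3 was the deepest, so that 0 reads in 1 of these libraries allows a level of up to 1.25 to 3.42 CPM, counting error only. Brown fat identity was clear in the libraries, with *Ucp1* at 2794 to 3220 CPM in IgG1 and 3560 to 5749 CPM in 3P10. The summed level of 18 skeletal muscle markers differed widely within both groups, from 257 to 2823 CPM in IgG1 and from 45.6 to 2900 CPM in 3P10, and 0 of the 18 genes were called. The ribosomal precursor Rn45s took 4.66 to 6.58% of the reads in IgG1 and 2.84 to 4.65% in 3P10 (exact permutation test, 2-sided, p = 0.00433, adjusted over 21 library measures 0.0455). Leaving Rn45s out of the counts gave 1014 called genes. The library of IgG1 replicate 2 stood apart from the other IgG1 libraries in many of the genes that fell most: over the 77 genes called lower by at least 2-fold, its median position was 0.42 of the log2 distance from the IgG1 mean to the 3P10 mean, against -0.30 to 0.014 for the other 4. For several genes in which it lay within the 3P10 range, the fold change without it is given too. Sample numbers in the library names run through 1 group after another (NTB, then IgG1, then 3P10), so effects of handling order and of the antibody cannot be told apart. The labels do not say that replicates came from separate animals, so the p-values measure the spread between these samples, which may be technical.

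3P10 treatment changed many brown fat transcripts by modest amounts. Of 8711 genes tested, 1013 (11.6%) passed an adjusted p of 0.05 in edgeR's quasi-likelihood test, 527 of them higher (6.05%) and 486 lower (5.58%) in 3P10 than in IgG1. The median absolute log2 fold change of the called genes was 0.57, with quartiles of 0.44 and 0.77, and values written below as a ± b in brackets are log2 fold changes with their SE. A change of at least 2-fold was called for 128 genes (1.47%), 51 higher (0.585%) and 77 lower (0.884%). For 980 of the called genes (96.7%) each 3P10 library differed from the IgG1 mean in the direction of the call. The calls rest on these same libraries, so this share is a description and no further evidence. The libraries of the groups did not overlap in 548 genes (6.29%), of which 469 (5.38%) were also called. Calls were more frequent among well expressed genes, from 138 of 2904 (4.75%) among the lowest-expressed genes (mean under 22.2 CPM) to 588 of 2904 (20.2%) among the highest (over 63.9 CPM), where the median SE was 0.11 instead of 0.26. The count fell to 646 without IgG1 replicate 3 and to 650 without IgG1 replicate 5. Since whole tissue was sequenced, fewer cells of a type and less RNA per cell cannot be told apart for any of these genes.

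**Figure D1:**
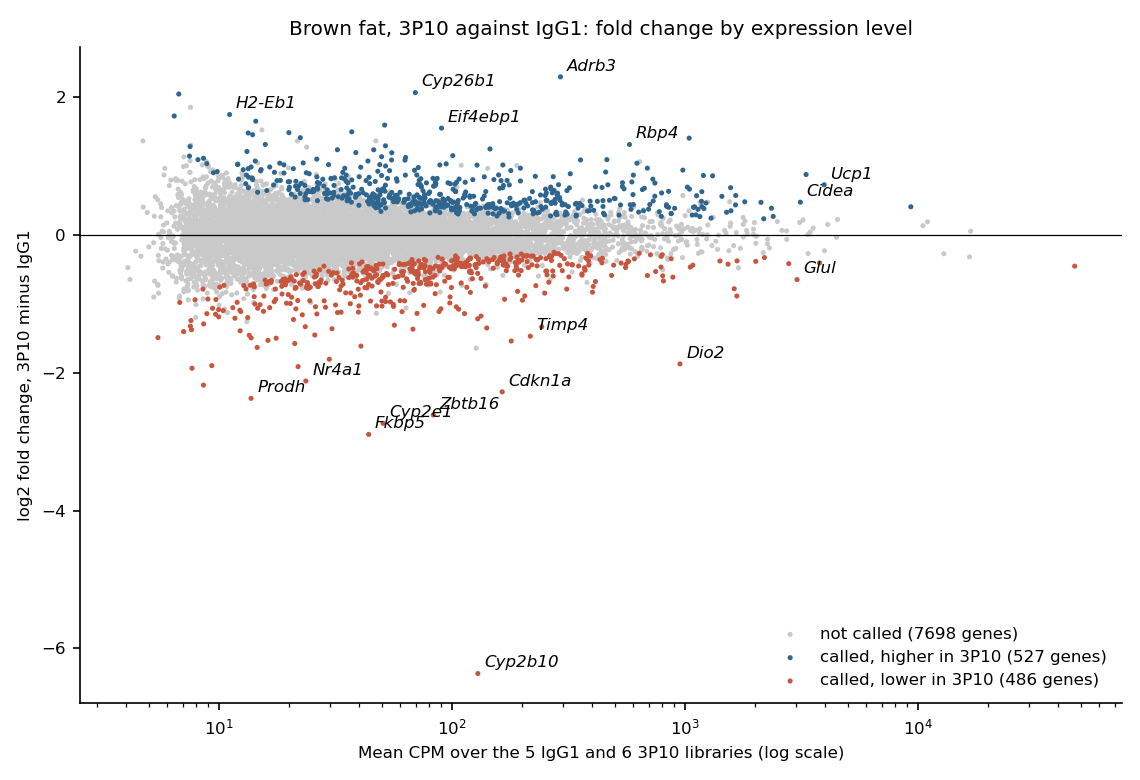
Log2 fold change of 3P10 minus IgG1 (vertical axis) against mean CPM over the 11 libraries (horizontal axis, log scale) for the 8711 genes tested in brown fat, each point 1 gene. Blue points are the 527 genes called higher and red points the 486 called lower, and *Adrb3* at 2.30 and *Cyp2b10* at -6.36 are the ends of the range.

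The beta-adrenergic receptor genes *Adrb3* and *Adrb1* rose, and *Adrb3*, the main receptor for noradrenaline on mouse adipocytes, had the largest rise of the 527 genes called higher. *Adrb3* was at 148, 104, 70.7, 79.5 and 69.5 CPM in IgG1 replicates 1 to 5 and at 486, 505, 535, 467, 289.7 and 465 CPM in 3P10 replicates 1 to 6. The lowest 3P10 library (replicate 5) was still above the highest IgG1 library, and the NTB libraries lay at 219 to 548 CPM. The log2 fold change was 2.30 ± 0.22 (SE, adjusted p = 4.11e-06), a 4.91-fold rise, and it ranged from 2.20 to 2.51 over all alternative analyses. *Adrb1*, the second beta receptor of the tissue, was at 38.6, 88, 51.3, 57.8 and 47.8 CPM in IgG1 and at 85.7 to 153 CPM in 3P10 (median 116). Its groups touched only through IgG1 replicate 2, which exceeded the lowest 3P10 library, and the log2 fold change was 1.02 ± 0.17 (SE, adjusted p = 0.000822), or 1.23 without that library.

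Genes of signalling below the receptors were called in both directions. Of 37 tested genes of adrenergic and cyclic AMP signalling, 3 rose, *Adrb3* and *Adrb1* among them, and 3 fell. That is 16.2% called, beside 11.6% over all genes tested. The median log2 fold change was 0.03 beside -0.01 over all genes tested. The remaining rise was *Akap1* at 0.42 ± 0.10 (SE, adjusted p = 0.0105), which anchors protein kinase A at mitochondria. The falls were the cyclic AMP phosphodiesterases *Pde8a* (-0.70 ± 0.15, adjusted p = 0.00469) and *Pde4d* (-0.58 ± 0.17, adjusted p = 0.0324) and the regulatory subunit *Prkar2a* (-0.48 ± 0.13, adjusted p = 0.0182). Without 3P10 replicate 3 the falls numbered 1, since *Pde4d* and *Prkar2a* were lost. *Pde4d* lost its call in 8 of 27 alternatives, with log2 fold changes from -0.69 to -0.37, and *Prkar2a* in 2 of 27. The kinase and G protein genes were not called: *Prkaca* had 0.38 ± 0.14, *Gnas* 0.07 ± 0.11 and *Adcy3* -0.07 ± 0.20 on the log2 scale (SE). *Ptger3*, an inhibitory prostaglandin E receptor outside that list, was at 38.6, 33.9, 18.2, 25.3 and 20.2 CPM in IgG1 and 42 to 103 CPM in 3P10. Its groups did not overlap, and the log2 fold change was 1.24 ± 0.25 (SE, adjusted p = 0.00299).

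**Figure D2:**
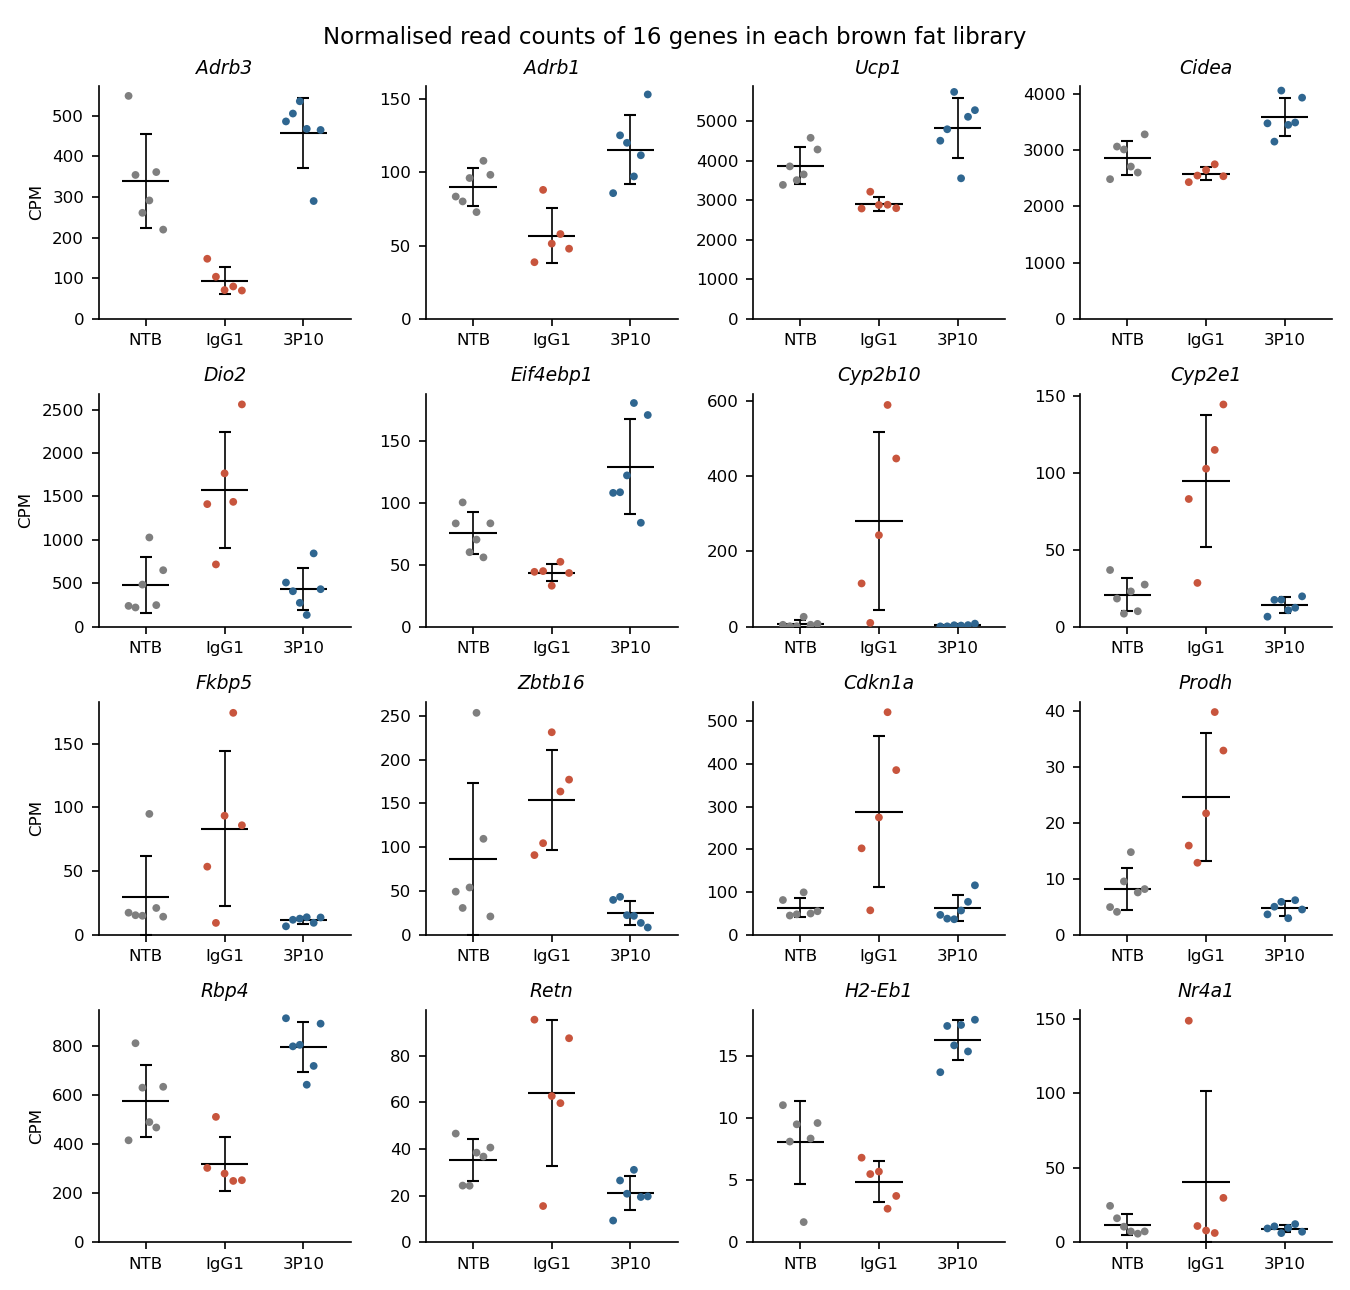
Normalised read counts (CPM, linear axes from 0) of 16 genes in each brown fat library, 6 NTB, 5 IgG1 and 6 3P10. Points are libraries in order of replicate number, horizontal lines the group means and bars the SD. The 3P10 libraries lie above all IgG1 libraries for *Adrb3*, *Ucp1*, *Cidea*, *Eif4ebp1*, *Rbp4* and *H2-Eb1* and below all of them for *Cyp2b10*, *Cyp2e1*, *Zbtb16* and *Prodh*.

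More genes of heat production rose than fell with 3P10. Of 26 tested thermogenic genes 10 rose and 2 fell, with a median log2 fold change of 0.16. That is 46.2% called, beside 11.6% over all genes tested. The count of rises was 6 without IgG1 replicate 3 and 6 to 11 over all alternatives. The falls were *Dio2* and *Slc27a2*, a fatty acid transport protein outside the rule for named genes (-0.48 ± 0.15, adjusted p = 0.0421), and 1 was left without IgG1 replicates 1, 3 or 5, or 3P10 replicates 2, 3 or 4. *Ucp1*, the uncoupling protein, was at 2794, 3220, 2884, 2890 and 2803 CPM in IgG1 and at 4513, 4803, 5749, 3560, 5119 and 5287 CPM in 3P10. No 3P10 library reached down to the IgG1 range, and the NTB libraries lay at 3393 to 4586 CPM. The log2 fold change of *Ucp1* was 0.73 ± 0.11 (SE, adjusted p = 0.000257), which is 1.66-fold. *Cidea*, a lipid droplet protein characteristic of brown adipocytes, was at 2431 to 2749 CPM in IgG1 and 3152 to 4060 CPM in 3P10. These groups did not overlap either, with a difference on the log2 scale of 0.48 ± 0.09 (SE, adjusted p = 0.00135).

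4 further thermogenic genes separated the groups without overlap. *Otop1*, a proton channel of brown adipocytes, was at 179 to 217 CPM in IgG1 and 267 to 397 CPM in 3P10, or 0.70 ± 0.11 (SE, adjusted p = 0.000524) on the log2 scale. *Esrrg*, a nuclear receptor that drives oxidative genes, rose from between 18.3 and 29.1 to between 35.9 and 55.3 CPM, at 0.97 ± 0.17 (SE, adjusted p = 0.00131) on the log2 scale. *Letmd1*, a mitochondrial inner membrane protein, rose by 0.57 ± 0.09 and the thioesterase *Acot11*, named after its values were seen, by 0.73 ± 0.16 (log2, SE). The brown-fat transcription factors moved less firmly. *Prdm16*, a determinant of brown adipocyte identity, was at 85.2, 75.1, 47.9, 35.2 and 28.4 CPM in IgG1 and 73.5 to 98.1 CPM in 3P10. Its groups overlapped through IgG1 replicates 1 and 2, and its difference of 0.73 ± 0.24 (SE, adjusted p = 0.0457) on the log2 scale lost its call in 12 of 27 alternatives. *Ppargc1a*, the coactivator of mitochondrial biogenesis, was not called at -0.14 ± 0.15 (SE, adjusted p = 0.602), nor were *Cox8b* (0.03 ± 0.09), *Zic1* (-0.37 ± 0.30) and *Elovl3* (-0.59 ± 0.31). The summed level of 9 brown adipocyte markers, which share *Ucp1*, *Cidea* and *Cox7a1* with these genes, was 17620 to 23010 CPM in IgG1 and 20920 to 27260 CPM in 3P10 (exact permutation test, 2-sided, p = 0.0195, adjusted over 21 measures 0.102). Its part in the rises was not tested.

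*Dio2* went the other way. It encodes the deiodinase that makes active thyroid hormone inside brown adipocytes and is a textbook target of cyclic AMP. *Dio2* was at 1411, 717, 1765, 1437 and 2559 CPM in IgG1 and 508, 408, 274, 135, 844 and 432 CPM in 3P10. IgG1 replicate 2 was the lowest of its group and 3P10 replicate 5 the highest of its own, and only these libraries overlapped. The log2 fold change was -1.87 ± 0.40 (SE, adjusted p = 0.0041), a 3.66-fold fall, and the NTB libraries lay at 221 to 1027 CPM. Without IgG1 replicate 2 the log2 fold change was -2.05. The bases before the *Dio2* start are shown because they hold a palindromic cyclic AMP response element (TGACGTCA, in capitals). They are from RefSeq on GRCm38.p6, chr12:90739039-90739158, minus strand, 5′ to 3′, ending at the base before the start, and the element begins 95 bases upstream.

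Dio2: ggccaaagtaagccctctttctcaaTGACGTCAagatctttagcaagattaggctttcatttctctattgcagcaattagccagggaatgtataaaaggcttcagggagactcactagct

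That element was searched on both strands in the 250 bases before the start of the 6720 tested genes with an entry, where 3.27% of the promoters held it. It was present in 11 of 395 genes called higher (2.78%) and 13 of 370 called lower (3.51%), so its frequency was near that of all tested promoters in both directions. Its presence is a match of letters and not a site shown to be bound.

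More nuclear genes of the respiratory chain rose than fell, mostly by small amounts. Over the 98 tested genes of complexes I to V and their assembly factors, 27 rose and 7 fell, with a median log2 fold change of 0.16. That is 34.7% called, beside 11.6% over all genes tested and 20.2% among those over 63.9 CPM. The rises numbered 17 without IgG1 replicate 2 and 17 without IgG1 replicate 3, and the falls numbered 4 without IgG1 replicate 3, IgG1 replicate 5, 3P10 replicate 5 or 3P10 replicate 6. Complex IV, cytochrome c oxidase, had 9 of 25 members higher and 1 lower, at a median of 0.21. The 1 fall was lost without IgG1 replicates 1, 2, 3 or 5, or 3P10 replicates 4, 5 or 6. Complex III had 5 higher and 2 lower of 14, with 3 higher without IgG1 replicates 2, 3 or 5, or 3P10 replicates 3 or 4, and 0 lower without IgG1 replicates 3 or 5, or 3P10 replicates 5 or 6. Complex I had 6 higher and 2 lower of 36, or 22.2% called, a share near the 20.2% among genes over 63.9 CPM. The complex I rises fell to 2 without IgG1 replicate 2, IgG1 replicate 3 or 3P10 replicate 3 and to 3 without 3P10 replicate 4. For complex II the counts were 3 higher and 0 lower of 7 (1 higher without IgG1 replicate 3), and for the ATP synthase 4 higher and 2 lower of 16.

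*Cox8a*, the ubiquitous form of a small oxidase subunit, was at 259, 228, 283, 381 and 278 CPM in IgG1 and 434, 495, 765, 683, 628 and 658 CPM in 3P10. The groups did not overlap, and the log2 fold change was 1.09 ± 0.17 (SE, adjusted p = 0.000487). Its brown fat and muscle isoform *Cox8b* was at 797 to 936 CPM and 684 to 1066 CPM and was not called. *Cox7b* (0.63 ± 0.13), *Cox6b1* (0.57 ± 0.12), *Cox6c* (0.47 ± 0.10) and *Cox6a1* (0.35 ± 0.07) also separated the groups, whereas *Cox4i1*, a core regulatory subunit, had -0.01 ± 0.07 (log2, SE). In complex III the Rieske iron-sulfur protein *Uqcrfs1* was at 657 to 1219 CPM in IgG1 and 1113 to 1973 CPM in 3P10, overlapping through IgG1 replicate 4 (0.86 ± 0.19, adjusted p = 0.00469). *Ndufab1*, the mitochondrial acyl carrier protein, rose by 0.87 ± 0.15 (SE, adjusted p = 0.00097) with no overlap. *Usmg5* of the ATP synthase rose by 1.09 ± 0.25 (SE, adjusted p = 0.00765). *Atp5l* of the same complex and *Ndufa2* of complex I fell without overlap, with log2 fold changes of -0.62 ± 0.13 (SE, adjusted p = 0.00324) and -0.44 ± 0.09 (SE, adjusted p = 0.00453).

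**Figure D3:**
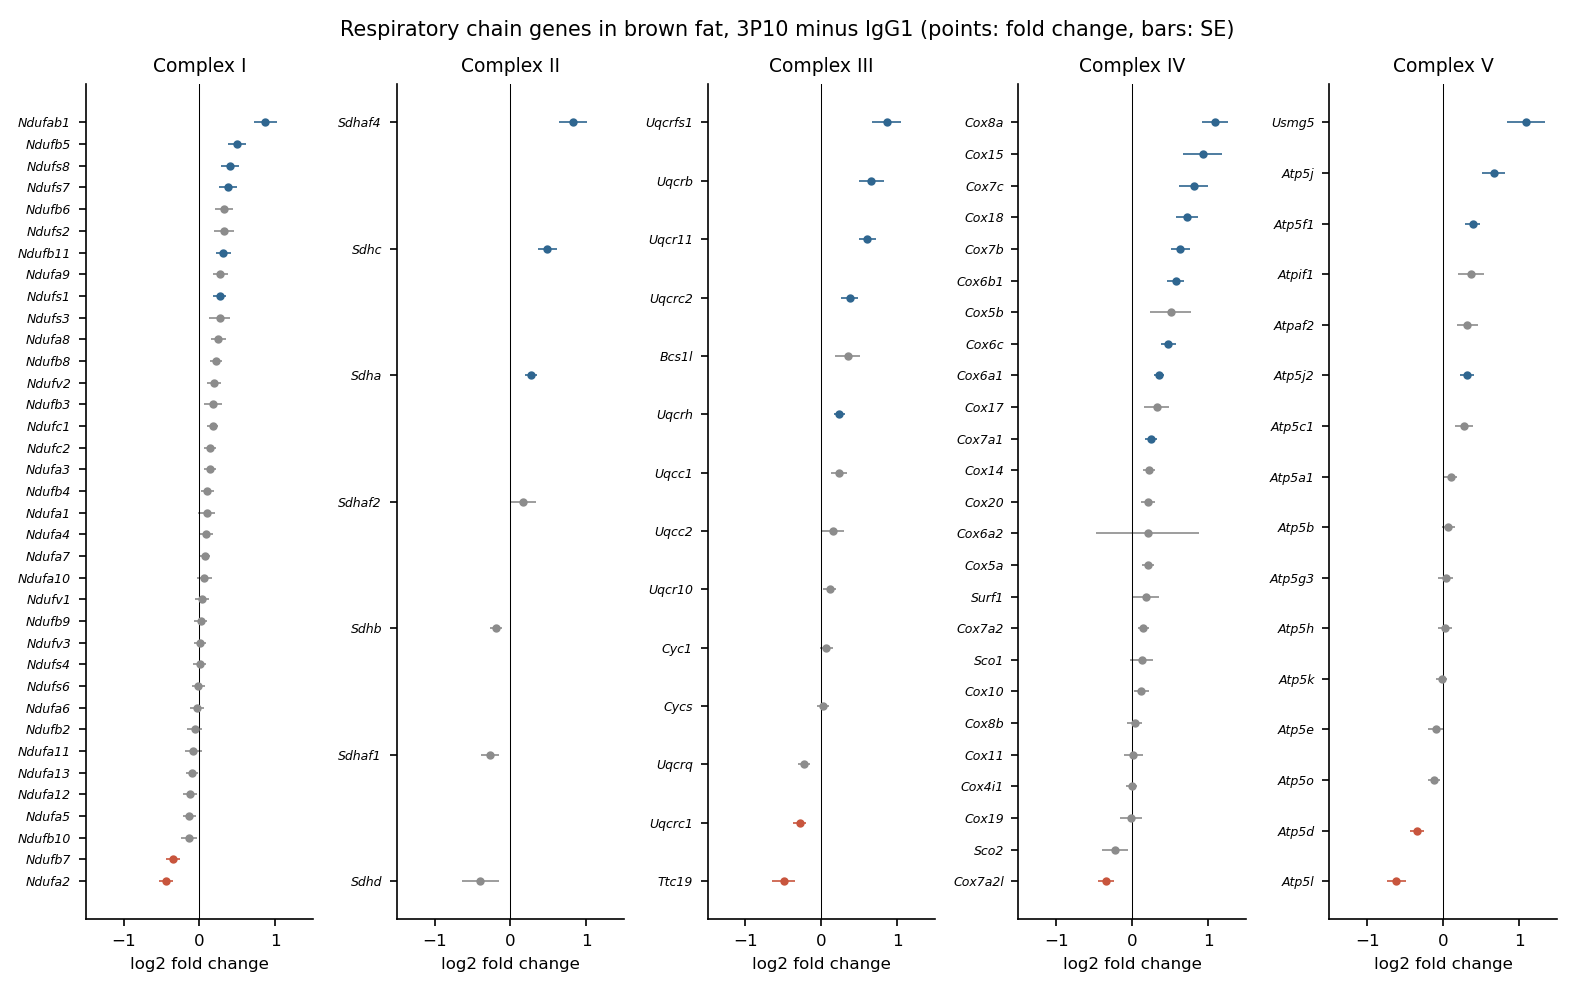
Log2 fold change of 3P10 minus IgG1 with its SE (horizontal axis, points and bars) for the 98 tested nuclear genes of complexes I to V, 1 gene per row. Blue points were called higher (27 genes), red points lower (7) and grey points were not called (64), and most points stand to the right of 0.

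Other mitochondrial groups held more rises than falls as well. The called shares were 25.7% for dynamics and import, 43.5% for the citric acid cycle and 25% for pyruvate entry. Over all genes tested the share was 11.6%. Of 35 genes of mitochondrial dynamics and import 8 rose and 1 fell, with 5 rises without IgG1 replicate 3. *Tomm7*, a small part of the outer membrane import channel, was at 329 to 482 CPM in IgG1 and 592 to 836 CPM in 3P10, or 0.77 ± 0.12 (SE, adjusted p = 0.000596) as log2 fold change, with no overlap. *Pam16*, a subunit of the import motor, was at 18.2, 21.1, 20.5, 33.4 and 19.4 CPM in IgG1 and 43.2 to 67 CPM in 3P10. It separated the groups too, at 1.20 ± 0.17 (SE, adjusted p = 0.00023). *Hspe1*, the mitochondrial co-chaperonin, rose by 0.87 ± 0.15 (SE, adjusted p = 0.000867). The fall was the mitophagy receptor *Bnip3*, named after its values were seen, at -0.61 ± 0.17 (SE, adjusted p = 0.0195). The falls numbered 0 without IgG1 replicates 3 or 5 or 3P10 replicate 3, and 2 without NTB replicate 4, IgG1 replicate 1 or 3P10 replicate 1. Among 23 genes of the citric acid cycle 7 rose and 3 fell, led by *Suclg1* (0.48 ± 0.09) and *Idh3b* (0.67 ± 0.13), with *Mdh2* lower (-0.33 ± 0.08). The falls numbered 1 without IgG1 replicate 4, IgG1 replicate 5 or 3P10 replicate 6. Of 12 genes of pyruvate entry and its control 3 rose and 0 fell at a median of -0.02, among them *Mpc2*, a subunit of the pyruvate carrier (0.49 ± 0.10, adjusted p = 0.00332), and *Pdhb* of pyruvate dehydrogenase (0.63 ± 0.12, adjusted p = 0.00229). A fall was called in 1 gene without NTB replicates 2 or 4, or 3P10 replicate 1. *Sod2*, the mitochondrial superoxide dismutase, was at 664 to 1014 CPM in IgG1 and 1160 to 1896 CPM in 3P10, and the peroxidase *Prdx1* at 364 to 563 CPM and 734 to 1134 CPM. Both separated the groups, with log2 fold changes of 0.86 ± 0.14 (SE, adjusted p = 0.000487) and 0.97 ± 0.15 (SE, adjusted p = 0.000487). Mitochondrial ribosomal proteins showed 8 rises and 5 falls among 74. Their called share of 17.6% lay between the 11.6% over all genes tested and the 20.2% among those over 63.9 CPM.

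Lipid genes changed in both directions. The called shares were 23.8% in fatty acid synthesis, 38.1% in fatty acid uptake and 27.8% in triglyceride synthesis. They were 24% in beta-oxidation and 25% in peroxisome genes, beside 11.6% over all genes tested. In fatty acid synthesis 4 of 21 genes rose and 1 fell, with 2 falls without IgG1 replicate 2 or 3P10 replicates 2, 5 or 6. *Acaca*, acetyl-CoA carboxylase, was at 796, 634, 736, 892 and 777 CPM in IgG1 and 968 to 1620 CPM in 3P10. Every 3P10 library was above the IgG1 libraries, and the log2 fold change was 0.70 ± 0.12 (SE, adjusted p = 0.00129). The elongases split, with *Elovl5* up by 0.58 ± 0.14 and *Elovl6* at -0.42 ± 0.10 (log2, SE). Fatty acid uptake had 5 rises and 3 falls among 21 genes (5 falls without IgG1 replicate 2). *Gpihbp1*, which holds lipoprotein lipase on capillaries, fell from between 245 and 352 to between 148 and 214 CPM without overlap (-0.73 ± 0.12, adjusted p = 0.000797), and so did the fatty acid transporter *Cd36* (-0.41 ± 0.08, adjusted p = 0.00221). *Fabp5* rose from between 67.3 and 86.3 to between 93.7 and 209 CPM (0.76 ± 0.19, adjusted p = 0.0127).

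Triglyceride synthesis had 4 of 18 genes lower and 1 higher, with 2 falls without IgG1 replicate 3 or 5 and 2 rises without NTB replicate 6 or 3P10 replicates 3 or 4. *Agpat1*, an acyltransferase, was at 456, 491, 633, 525 and 532 CPM in IgG1 and 215 to 337 CPM in 3P10, or -0.83 ± 0.13 (SE, adjusted p = 0.000636) as log2 fold change. *Dgat1*, the last enzyme of the pathway, went from between 365 and 511 to between 282 and 357 CPM (-0.51 ± 0.11, adjusted p = 0.00432). Neither pair of groups overlapped. *Pck1*, which supplies glycerol phosphate, was at 2055, 1513, 2711, 2942 and 2155 CPM in IgG1 and 2382, 3184, 2872, 5120, 5702 and 5842 CPM in 3P10. 3P10 replicates 4, 5 and 6 were high and replicates 1 to 3 lay within or just above the IgG1 range, and the log2 fold change was 0.88 ± 0.22 (SE, adjusted p = 0.0132). The lipases diverged, with *Pnpla2*, the triglyceride lipase ATGL, at -0.37 ± 0.09 (SE, adjusted p = 0.0109) and *Lipe*, hormone-sensitive lipase, at 0.35 ± 0.10 (SE, adjusted p = 0.0195), and the call of *Lipe* was lost without IgG1 replicate 2 (adjusted p = 0.0502) or 3P10 replicate 3. In beta-oxidation 3 of 25 genes rose and 3 fell: *Hadh* (0.56 ± 0.11) and *Hadhb* (0.41 ± 0.09) rose and *Echs1* (-0.38 ± 0.08) fell, among others. The rises numbered 5 without 3P10 replicate 2, and the falls 1 without IgG1 replicate 3 or 3P10 replicates 3 or 4. Peroxisome genes had 6 rises and 1 fall among 28 (3 rises without 3P10 replicate 3, and 2 falls without NTB replicate 2, IgG1 replicate 2 or 3P10 replicate 1).

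In the glucocorticoid response falls outnumbered rises. Of 26 tested members 8 fell and 2 rose, with a median log2 fold change of -0.33, and 21 had a negative value. The called share was 38.5%, beside 11.6% over all genes tested. *Fkbp5*, a cochaperone of the glucocorticoid receptor and one of its best known targets, was at 53.4, 9.16, 93.5, 174 and 86 CPM in IgG1 and 6.49, 11.6, 12.5, 13.6, 9.21 and 13.4 CPM in 3P10. 4 IgG1 libraries were above all 3P10 libraries, and IgG1 replicate 2 lay within the 3P10 range. The log2 fold change was -2.89 ± 0.54 (SE, adjusted p = 0.00172), and without IgG1 replicate 2 it was -3.19 (adjusted p = 9.68e-05, range 6.94e-05 to 0.0134 over all alternatives). *Zbtb16*, a transcription factor induced by glucocorticoids, was at 90.9, 104, 231, 164 and 177 CPM in IgG1 and 39.6, 43.1, 22.1, 21.4, 13.3 and 8.06 CPM in 3P10. These groups did not overlap, at -2.61 ± 0.48 (SE, adjusted p = 0.00159), and the NTB libraries lay at 20.7 to 254 CPM.

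*Cdkn1a*, which encodes the cell cycle inhibitor p21, was at 202, 56.8, 275, 522 and 386 CPM in IgG1 and 46.1, 37.3, 35.9, 56.4, 76.8 and 116 CPM in 3P10. IgG1 replicate 2 again lay within the 3P10 range while the other 4 libraries were above it. The log2 fold change was -2.28 ± 0.37 (SE, adjusted p = 0.000663), and -2.54 without IgG1 replicate 2. Smaller falls were called for *Sult1a1* (-1.14 ± 0.23, adjusted p = 0.00281), *Klf9* (-0.59 ± 0.12, adjusted p = 0.00242) and *Glul* (-0.65 ± 0.16, adjusted p = 0.0139), which without IgG1 replicate 2 were -1.32, -0.70 and -0.79. The remaining falls, outside the rule for named genes, were the kinase *Sgk1* (-0.83 ± 0.22, adjusted p = 0.0164) and *Tsc22d3*, the leucine zipper known as GILZ (-1.07 ± 0.30, adjusted p = 0.0229). The receptor gene *Nr3c1* was level at 208 to 297 CPM in IgG1 and 192 to 282 CPM in 3P10 (0.00 ± 0.11, adjusted p = 0.99). Other known targets were not called, with *Per1* at -0.72 ± 0.35, *Klf15* at -0.51 ± 0.19 and *Dusp1* at -0.24 ± 0.15. The rises were *Angptl4* (0.77 ± 0.23, adjusted p = 0.0302) and the metallothionein *Mt2* (0.85 ± 0.24, adjusted p = 0.0245), and *Mt2* was lost without IgG1 replicates 2 or 3, or 3P10 replicates 3 or 6. *Angptl4* was lost without IgG1 replicates 3, 4 or 5, or 3P10 replicates 3 or 4.

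Enzymes of drug and steroid metabolism contained the largest fall. *Cyp2b10*, a cytochrome P450 known as the marker target of the nuclear receptor CAR, was at 115, 10.1, 243, 588 and 446 CPM in IgG1 and 0.721, 0.829, 3.75, 2.92, 4.09 and 8.06 CPM in 3P10. IgG1 replicate 2 was by far the lowest of its group yet above every 3P10 library, and the NTB libraries lay at 1.01 to 26.2 CPM. The log2 fold change was -6.36 ± 0.75 (SE, adjusted p = 5.53e-05) on 1573 reads in IgG1 and 27 in 3P10, and -6.68 without IgG1 replicate 2. *Cyp2e1*, a P450 that oxidises ethanol and ketones, was at 82.9, 28.4, 103, 115 and 144 CPM in IgG1 and 6.49 to 19.7 CPM in 3P10. The groups did not overlap, at -2.73 ± 0.34 (SE, adjusted p = 5.53e-05). In all, 10 of 43 tested genes of xenobiotic metabolism fell and 3 rose (30.2% called, beside 11.6% over all genes tested). The rises numbered 1 without IgG1 replicates 1, 2 or 3, or 3P10 replicates 3 or 4. *Gstz1* (-0.75 ± 0.12, adjusted p = 0.000487), the flavin monooxygenases *Fmo2* (-1.31 ± 0.26, adjusted p = 0.00238) and *Fmo1* (-0.84 ± 0.17, adjusted p = 0.0026) and *Aldh1l1* (-1.33 ± 0.23, adjusted p = 0.00109) were among the falls. The electron donor *Por* (0.14 ± 0.11) and the receptor genes *Ahr* (-0.28 ± 0.30) and *Arnt* (0.05 ± 0.27) were not called.

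Several amino acid enzymes fell. Of 17 tested genes of glutamine, serine and one-carbon metabolism 5 fell and 0 rose, and the falls numbered 4 to 7 over all alternatives. That is 29.4% called, beside 11.6% over all genes tested. *Prodh*, the first enzyme of proline breakdown, was at 15.9, 12.8, 21.7, 39.8 and 32.9 CPM in IgG1 and 3.6, 4.97, 5.84, 2.92, 6.14 and 4.48 CPM in 3P10. The groups did not overlap, and the log2 fold change was -2.37 ± 0.32 (SE, adjusted p = 0.000144). The alanine transaminases *Gpt2* (-1.11 ± 0.25, adjusted p = 0.00714) and *Gpt* (-0.63 ± 0.16, adjusted p = 0.0149) separated the groups as well. *Glul*, glutamine synthetase, was at 3420, 2191, 4074, 4760 and 4440 CPM in IgG1 and 1917 to 2874 CPM in 3P10, overlapping through IgG1 replicate 2. In branched-chain amino acid breakdown 6 of 27 genes rose and 3 fell (5 fell without IgG1 replicate 2), with *Auh* up by 0.79 ± 0.18 and *Ivd* at -0.71 ± 0.13 (log2, SE). The called share of this list was 33.3%, beside 11.6% over all genes tested.

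Of 3 tested translation repressors of the 4E-BP family 2 rose, and *Eif4ebp3* was not called (-0.10 ± 0.15, adjusted p = 0.701). *Eif4ebp1*, which binds the cap-binding factor eIF4E and is switched off by mTOR, was at 44.3, 44.9, 33.1, 52.4 and 43.4 CPM in IgG1 and 108, 109, 122, 181, 84 and 171 CPM in 3P10. The lowest 3P10 library was above the highest IgG1 library, the NTB libraries lay at 56 to 100.4 CPM, and the log2 fold change was 1.55 ± 0.19 (SE, adjusted p = 5.53e-05). *Eif4ebp2* was at 80.6 to 146 CPM in IgG1 and 151 to 292 CPM in 3P10 (1.02 ± 0.19, adjusted p = 0.00147), also without overlap. Of 26 genes of cap-dependent translation and its brakes 5 rose and 0 fell (19.2% called, beside 11.6% over all genes tested). The other 3 were the mTOR inhibitor *Deptor* (0.34 ± 0.10, adjusted p = 0.0339), *Lars2* (0.60 ± 0.19, adjusted p = 0.0415) and *Eif4g2* (0.29 ± 0.09, adjusted p = 0.0474), and each was lost in 6 or more alternatives, so that 2 rises were left without IgG1 replicate 3, 3P10 replicate 3 or 3P10 replicate 6 and 3 without IgG1 replicates 2 or 4, or 3P10 replicates 2, 4 or 5. In 6 fits with 1 library left out 1 gene of the list was called lower, among them those without IgG1 replicates 2 or 5 or 3P10 replicate 1.

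Insulin and IGF signalling genes were split, with 4 of 31 higher and 6 lower (32.3% called, beside 11.6% over all genes tested). *Grb14*, an adaptor that inhibits the insulin receptor, was at 27.3, 33.9, 13.7, 9.94 and 9.72 CPM in IgG1 and 35 to 68.8 CPM in 3P10. IgG1 replicates 1 and 2 were nearest to 3P10 without reaching it, and the log2 fold change was 1.5 ± 0.25 (SE, adjusted p = 0.000757). *Akt2*, the kinase of the insulin response, rose from between 108 and 128 to between 153 and 247 CPM (0.79 ± 0.13, adjusted p = 0.000663) and *Stat5a* from between 5.68 and 17.2 to between 22.4 and 25.9 CPM (1.04 ± 0.21, adjusted p = 0.00315). *Igfbp4*, a secreted IGF-binding protein, was at 199, 122, 209.7, 204 and 222 CPM in IgG1 and 58.4 to 103 CPM in 3P10. It separated the groups, at -1.18 ± 0.16 (SE, adjusted p = 0.000152), and the receptor *Igf1r* fell as well (-0.56 ± 0.14, adjusted p = 0.012).

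Some secreted factors and retinoid genes changed, in both directions. *Rbp4*, the carrier of retinol and an adipokine, was at 303, 511, 280.4, 250.4 and 253 CPM in IgG1 and 913, 798, 805, 642, 719 and 891 CPM in 3P10. IgG1 replicate 2 was the highest of its group and still below 3P10, and the log2 fold change was 1.31 ± 0.18 (SE, adjusted p = 0.000142). *Retn*, which encodes resistin, was at 95.4, 15.6, 62.7, 59.6 and 87.5 CPM in IgG1 and 9.37, 26.5, 20.9, 31.1, 19.4 and 19.7 CPM in 3P10, with IgG1 replicate 2 inside the 3P10 range (-1.61 ± 0.31, adjusted p = 0.00198, and -1.86 without that library). *Adipoq* (-0.26 ± 0.09, adjusted p = 0.0579) and *Lep* (0.87 ± 0.67, adjusted p = 0.433) were not called. *Cyp26b1*, which degrades retinoic acid, was at 23.9, 33.9, 25.1, 21.7 and 21.7 CPM in IgG1 and 28.1, 114, 121, 188, 155 and 34.9 CPM in 3P10. 3P10 replicates 1 and 6 were near or within the IgG1 range and the other 4 far above it, at 2.07 ± 0.48 (SE, adjusted p = 0.00736). *Rarres1*, a retinoic acid responsive gene, was at 23.9, 4.58, 46.7, 56 and 52.3 CPM in IgG1 and 4.32 to 13.3 CPM in 3P10, with IgG1 replicate 2 at the level of 3P10 (-1.91 ± 0.40, adjusted p = 0.00411, and -2.20 without that library). 4 of 20 retinoid genes rose and 3 fell (35% called, beside 11.6% over all genes tested).

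Antigen presentation genes of MHC class II rose in part, at low levels. *H2-Eb1* was at 6.82, 5.5, 5.7, 2.71 and 3.74 CPM in IgG1 and 13.7, 17.4, 15.8, 17.5, 15.4 and 17.9 CPM in 3P10, on 25 and 131 reads. The groups did not overlap, and the log2 fold change was 1.75 ± 0.30 (SE, adjusted p = 0.00089). *H2-Aa*, the partner alpha chain of I-A, was at 14.8, 16.5, 10.3, 3.62 and 13.5 CPM in IgG1 and 32.4, 22.4, 33, 26.2, 27.6 and 45.7 CPM in 3P10. This pair of groups was separate too (1.41 ± 0.27, adjusted p = 0.00208). *H2-Ab1* rose by 0.93 ± 0.25 (SE, adjusted p = 0.0169) and was lost without 3P10 replicate 3. So 3 of 6 tested class II genes rose (50% called, beside 11.6% over all genes tested), at a list median of 0.79. *H2-Aa* and *H2-Eb1* lie close together in the genome, and the bases before their starts are shown because a Y box (CCAAT, either strand) and, in *H2-Aa*, the TGACGTCA element are motifs of class II promoters. Motifs are in capitals, both sequences are from RefSeq on GRCm38.p6, 5′ to 3′ and end at the base before the start (chr17:34287824-34287973, minus strand, and chr17:34305717-34305866, plus strand).

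H2-Aa: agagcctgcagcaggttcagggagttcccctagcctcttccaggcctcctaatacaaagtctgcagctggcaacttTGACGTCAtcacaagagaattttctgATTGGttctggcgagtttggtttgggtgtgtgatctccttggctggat
H2-Eb1: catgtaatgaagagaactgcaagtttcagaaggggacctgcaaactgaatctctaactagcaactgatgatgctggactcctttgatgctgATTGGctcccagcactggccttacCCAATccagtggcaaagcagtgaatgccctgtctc

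In *H2-Aa* the TGACGTCA element began 74 and the Y box 48 bases upstream, and in *H2-Eb1* the Y boxes began 59 and 35 bases upstream. CCAAT was present in 40.1% of the tested promoters, 41.5% of those called higher and 40.8% of those called lower.

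Few markers of immune cells were called. Of 7 tested macrophage markers 0 were called (1 lower without IgG1 replicate 2), and the summed level of 16 was 170 to 249.9 CPM in IgG1 and 153 to 207.5 CPM in 3P10. Dendritic cell markers, of which *Itgax* was at 0 in all 11 libraries, summed to 59.6 to 82.2 CPM and 66.5 to 91.3 CPM. These markers share *H2-Ab1* with the class II genes that rose, and their part in the class II rise was not tested. NK cell markers summed to 1.14 to 5.5 CPM in IgG1 and 4.86 to 8.34 CPM in 3P10 (exact permutation test, 2-sided, adjusted p = 0.0606). Of 10 B cell markers counted 5 were at 0 in all 11 libraries, *Cd79a* and *Ms4a1* among them. Of 13 T cell markers 5 were at 0 as well, *Cd3g* and *Cd8a* among them. The sums were 0.916 to 2.71 CPM in IgG1 and 1.02 to 5.83 CPM in 3P10 for B cells. For T cells they were 6.73 to 10.26 CPM and 6.8 to 19.45 CPM. Neutrophil markers summed to 6.33 to 15.7 CPM and 7.16 to 25.26 CPM (exact permutation test, 2-sided, adjusted p = 0.208). *Gpnmb*, a gene of lipid-laden macrophages, was at 6.82, 3.67, 23.9, 22.6 and 37.4 CPM in IgG1 and 2.88, 4.97, 12.1, 6.8, 1.02 and 13.4 CPM in 3P10, with overlap, and its difference of -1.39 ± 0.45 (SE, adjusted p = 0.0462) on the log2 scale lost its call in 15 of the 25 alternatives that tested it.

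Lymphatic endothelial markers summed to 25.3 to 38.6 CPM in IgG1 and 13.3 to 23.6 CPM in 3P10, without overlap (exact permutation test, 2-sided, p = 0.00216, the smallest that 5 against 6 libraries allow, adjusted 0.0455). *Ccl21a* was at 0 in all of them. Of the 3 tested members 1 was called, *Lyve1*, and 1 had a positive log2 fold change. *Lyve1*, the hyaluronan receptor of lymphatic vessels, was at 20.4, 5.5, 16, 12.7 and 8.97 CPM in IgG1 and 0.721, 1.66, 2.09, 3.89, 6.14 and 6.27 CPM in 3P10. Its IgG1 replicate 2 overlapped with 3P10 (-1.93 ± 0.43, adjusted p = 0.00526, and -2.12 without that library). Whether the summed level differed without *Lyve1* was not tested. *Lyve1* was too low to be tested without NTB replicate 4. With DESeq2, and with the 3P10 and IgG1 libraries alone, 0 lymphatic markers were called lower. All 11 tested endothelial markers had a negative log2 fold change, at a median of -0.35, and *Pecam1*, an adhesion molecule of endothelium, was the 1 called (-0.52 ± 0.12, adjusted p = 0.00627), with 2 called without IgG1 replicate 4. The called share of 9.09% was near the 11.6% over all genes tested. Of 14 tested fibroblast markers 3 were called lower (21.4%, beside 11.6% over all genes tested). In this list 8 had a negative and 6 a positive log2 fold change. The calls were *Dcn* (-0.59 ± 0.10, adjusted p = 0.000797), *Cd34* (-0.66 ± 0.20, adjusted p = 0.0382) and *Pdgfrb* (-0.48 ± 0.16, adjusted p = 0.0478), with 1 call left without IgG1 replicates 1, 2 or 5, or 3P10 replicates 3, 5 or 6. *Pdgfrb*, also a pericyte marker, lost its call with DESeq2, with the 3P10 and IgG1 libraries alone and in many fits that left out 1 library.

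Among 40 matrix genes 8 fell and 3 rose, at a median of -0.24 (27.5% called, beside 11.6% over all genes tested). The falls numbered 5 without IgG1 replicates 2 or 3, or 3P10 replicates 3, 4 or 6. *Timp4*, an inhibitor of matrix proteases, was at 283, 235, 384, 389.5 and 374 CPM in IgG1 and 125, 119, 116, 98.1, 138 and 127 CPM in 3P10. The groups did not overlap, at -1.47 ± 0.18 (SE, adjusted p = 5.53e-05), and the NTB libraries lay at 142 to 376 CPM. The gene overlaps the span of *Syn2* in the RefSeq annotation, which was called lower too (-1.53 ± 0.37, adjusted p = 0.00968), and whether reads were told apart by strand is not given. Fibroblast markers summed to 878 to 1382 CPM in IgG1 and 842 to 1052 CPM in 3P10 (exact permutation test, 2-sided, adjusted p = 0.159), and their part in the matrix falls was not tested. *Eln*, elastin, fell from between 28.4 and 52.3 to between 12.6 and 25.6 CPM (-1.15 ± 0.20, adjusted p = 0.00129). *Serpinh1*, the collagen chaperone HSP47, rose from between 40.4 and 75 to between 104 and 152 CPM (1.03 ± 0.15, adjusted p = 0.000257), and *Prelp*, a matrix proteoglycan, rose by 1.01 ± 0.18 (SE, adjusted p = 0.00108). Of 15 collagens 1 was called, *Col15a1* of the basement membrane (0.99 ± 0.32, adjusted p = 0.0466), which lost its call in 14 of 27 alternatives with log2 fold changes from 0.72 to 1.35.

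Of 18 immediate early genes 4 fell and 0 rose, at a median of -0.31 (22.2% called, beside 11.6% over all genes tested). *Klf6* was at 306, 275, 280.4, 239 and 267 CPM in IgG1 and 119.6, 135, 111, 156, 198 and 176 CPM in 3P10, without overlap (-0.88 ± 0.13, adjusted p = 0.000311). *Nr4a2*, an orphan nuclear receptor induced by cyclic AMP and other stimuli, was at 112.5, 32.1, 67.2, 82.2 and 95.7 CPM in IgG1 and 34.8 to 46.1 CPM in 3P10, where IgG1 replicate 2 was below every 3P10 library and the other 4 above them (-1.04 ± 0.24, adjusted p = 0.00755, and -1.24 without it). *Nr4a1* was at 149, 11, 7.98, 6.33 and 29.9 CPM in IgG1 and 9.37, 10.8, 6.26, 9.72, 12.3 and 7.16 CPM in 3P10. Its call (-2.12 ± 0.62, adjusted p = 0.028) was lost without IgG1 replicate 1, where the log2 fold change was -0.69 (adjusted p = 0.311), and also without 3P10 replicates 3 or 6. *Egr1* (-0.98 ± 0.45), *Jun* (-0.54 ± 0.21) and *Junb* (0.04 ± 0.18) were not called, and 2 falls were left without IgG1 replicate 1.

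**Figure D4:**
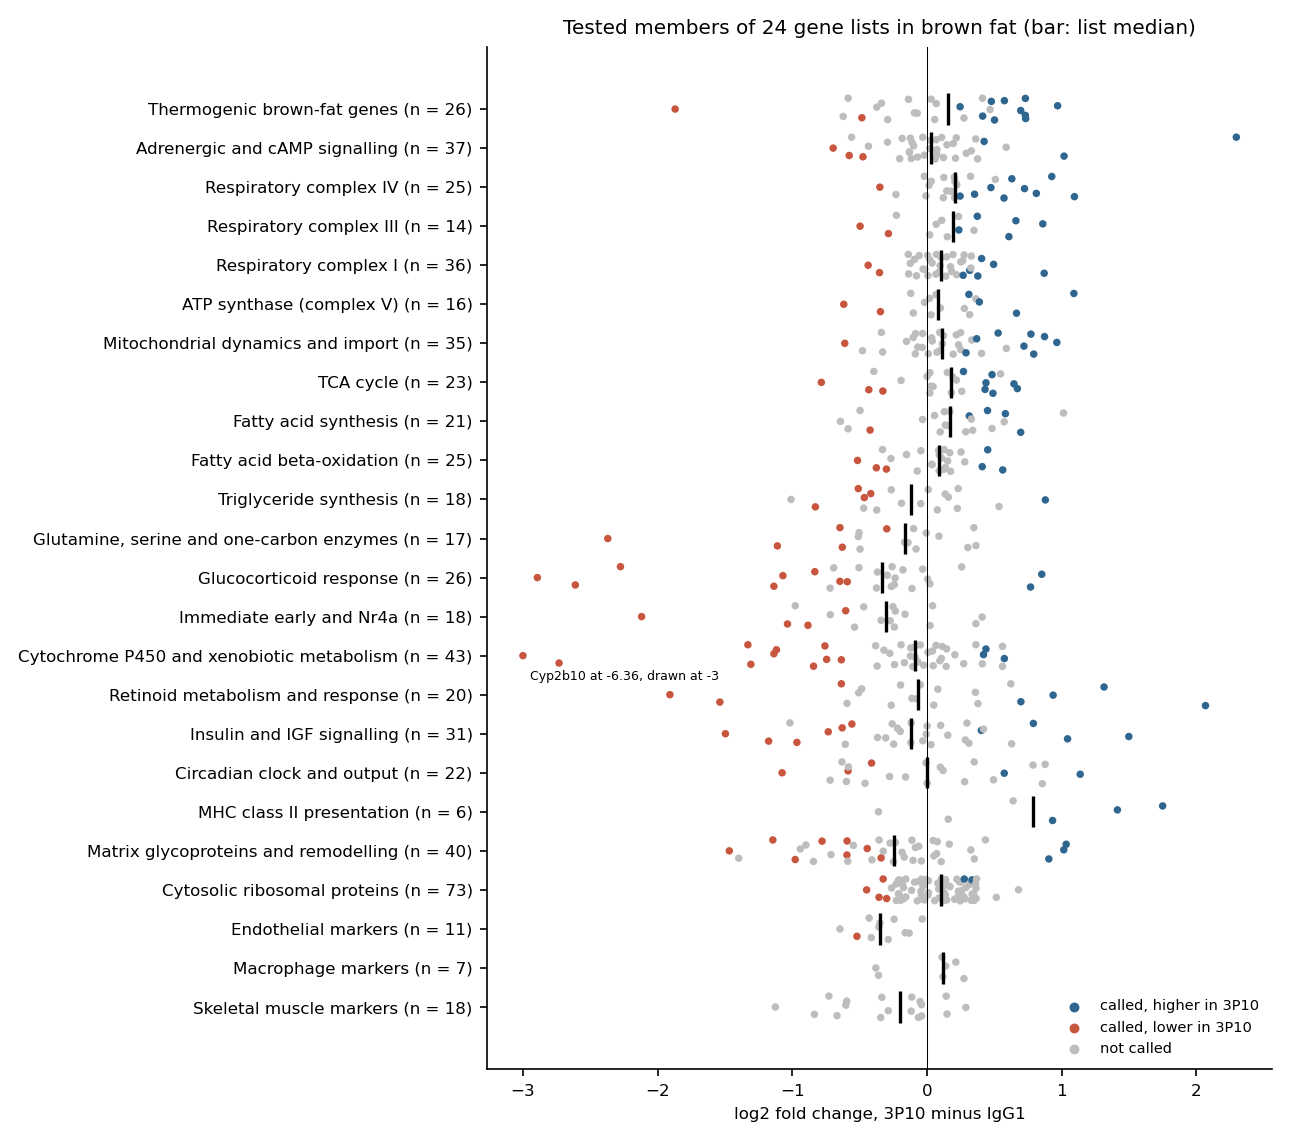
Log2 fold change of 3P10 minus IgG1 (horizontal axis) for the tested members of 24 gene lists (rows, with the number tested). Each point is 1 gene, blue called higher, red called lower and grey not called, and the black bar is the list median, which is lowest for the endothelial markers (-0.35) and the glucocorticoid response (-0.33) and highest for MHC class II (0.79). *Cyp2b10* is drawn at the axis limit.

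Other groups showed fewer calls or calls that moved with single libraries. Creatine and calcium cycling, other routes of heat production, had 0 of 13 genes called, and glycogen metabolism 0 of 18, with 1 glycogen gene called in 5 fits that left out 1 library. Cytosolic ribosomal proteins had 7 of 73 called (9.59%), 3 higher and 4 lower. That share was near the background of 11.6% over all genes tested and below the 20.2% among those over 63.9 CPM. Their rises ranged from 0 without IgG1 replicate 3 to 8 without 3P10 replicate 1, with 5 without NTB replicate 3 and 1 without IgG1 replicates 1 or 5 or 3P10 replicates 3 or 4, and their falls numbered 2 without IgG1 replicate 3. Cholesterol synthesis had 1 rise among 22 genes, *Nsdhl* (0.78 ± 0.20, adjusted p = 0.0139), and 2 without NTB replicate 2, IgG1 replicate 1 or 3P10 replicates 2 or 3. A fall was called in 1 gene without IgG1 replicate 2 or 3P10 replicate 4. Of 28 interferon response genes 2 rose and 1 fell (10.7%), also a share near the background. *Ifi27*, a mitochondrial interferon-induced protein, was at 1046 to 1313 CPM in IgG1 and 1707 to 2439 CPM in 3P10 (0.69 ± 0.10, adjusted p = 0.000414). The interferon rises numbered 5 without IgG1 replicate 2 and 1 without IgG1 replicates 3, 4 or 5 or 3P10 replicate 2. The falls numbered 2 without IgG1 replicate 3 and 0 without IgG1 replicates 1, 2, 4 or 5 or 3P10 replicates 1, 2, 3, 4 or 6.

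Of 22 tested genes of the circadian clock and its output 2 rose and 3 fell (22.7%, beside 11.6% over all genes tested). The rises numbered 4 without IgG1 replicate 1 and 1 without IgG1 replicates 3 or 5 or 3P10 replicates 3, 4 or 6. The output genes moved apart, *Dbp* rising by 1.14 ± 0.25 (SE, adjusted p = 0.00527) and the deubiquitinase *Usp2* falling from between 86.1 and 189 to between 57.2 and 77 CPM (-1.08 ± 0.21, adjusted p = 0.00202). The labels do not give the time of day of the harvest.

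The remaining genes among the 15 largest rises and 15 largest falls covered varied functions. *Pmepa1*, a membrane adaptor that restrains TGF-beta signalling, was at 349.8, 889, 912, 314 and 283 CPM in IgG1 and 942 to 2027 CPM in 3P10, just separate (1.41 ± 0.27, adjusted p = 0.00202). *Ano1*, a calcium-activated chloride channel, was at 20.8 to 35.3 CPM and 56.4 to 81.6 CPM (1.29 ± 0.16, adjusted p = 5.53e-05). *Suox*, sulfite oxidase (1.48), the cristae protein gene *Apoo* (1.46), the tubulin acetyltransferase *Atat1* (1.31), *Tspan18* (1.25) and *4930452B06Rik* (1.24) complete the rises. *Rbm3*, a cold-induced RNA-binding protein, was at 19.3, 35.7, 33.1, 34.4 and 43.4 CPM in IgG1 and 18.7, 11.6, 9.59, 10.7, 9.21 and 7.16 CPM in 3P10, and the lowest IgG1 library was just above the highest 3P10 library (-1.57 ± 0.23, adjusted p = 0.000266). The lipocalin *Apod* (-1.49), *Gpr160* (-1.45), glutaredoxin *Glrx* (-1.36), *Cyth1* (-1.23), T-cadherin *Cdh13* (-1.16) and the proprotein convertase *Pcsk5* (-1.10) were the other falls. *Nova1*, a splicing factor best known from neurons, was at 10.8 to 18.3 CPM in IgG1 and 3.07 to 6.8 CPM in 3P10, without overlap (-1.90 ± 0.25, adjusted p = 0.000125).

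**Figure D5:**
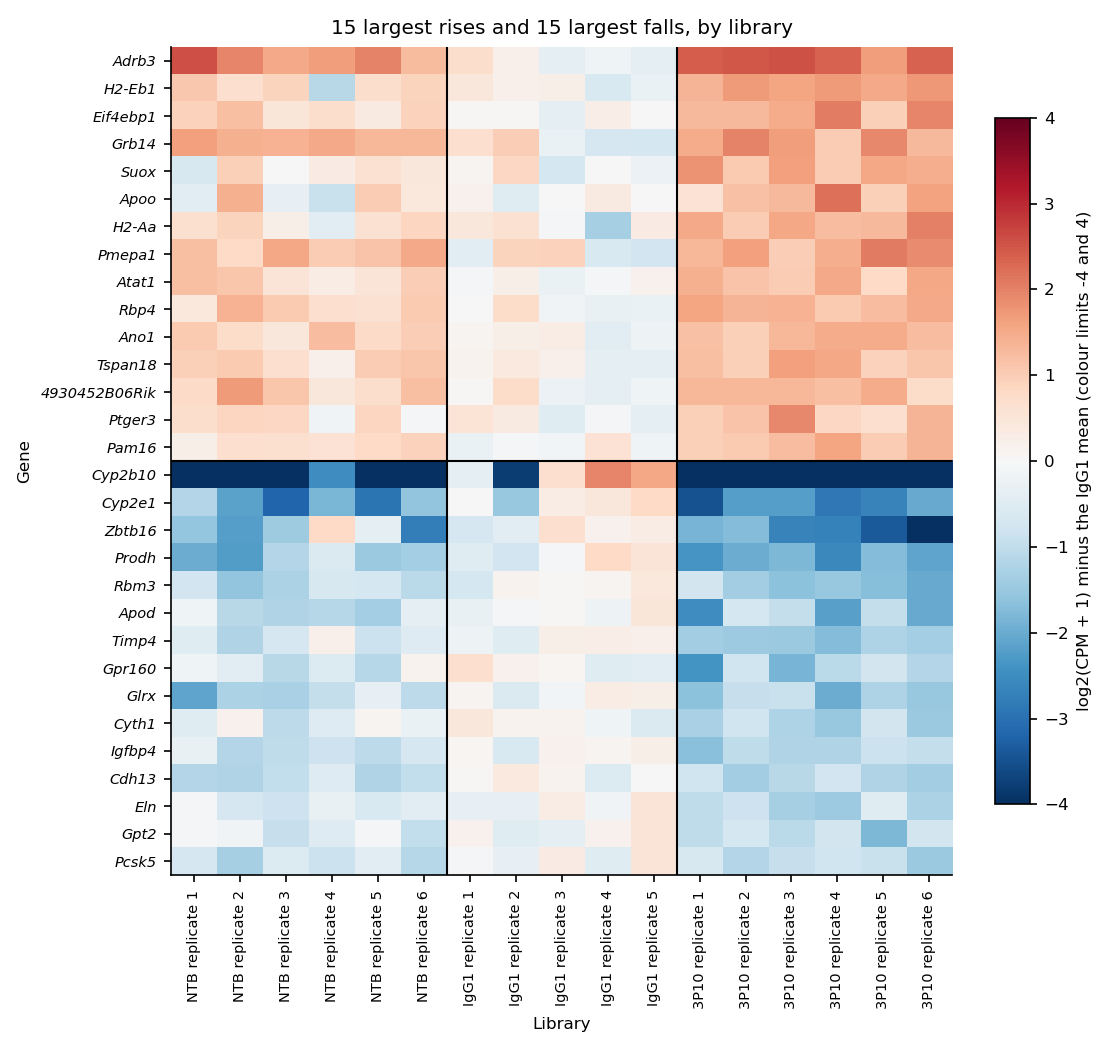
The 15 largest rises (upper block) and 15 largest falls (lower block) in each brown fat library. Rows are genes, columns the 6 NTB, 5 IgG1 and 6 3P10 libraries, and colour is log2(CPM + 1) minus the IgG1 mean (red higher, blue lower, limits -4 and 4). IgG1 replicate 2 is the darkest blue of the IgG1 columns for *Cyp2b10*, *Cyp2e1* and *Prodh*.

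The antibody's own target could not be followed in this tissue. *Gfral* had 0 reads in all 11 libraries. *Ret* had 2 reads in the IgG1 libraries and 12 in the 3P10 libraries together, and *Gdf15* had 7 and 10, all below the filter.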

How the data were processed

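Brown fat RNA was sequenced as QuantSeq 3-prime libraries with a unique molecular identifier module, per the labels. The deposited file holds the authors' raw read counts per gene. Trim Galore, STAR 2.6.0a, featureCounts 1.6.2, edgeR 3.22.3 and mm9 are named in the submitters' processing notes. Annotation, strand setting and use of the identifiers are not given in the sources used here.

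All 17 brown fat libraries were fitted in 3 groups with edgeR 4.0.16 (R 4.3.3): filterByExpr (minimum count 10, minimum total 15) kept 8711 of 24391 genes, scaling was TMM, and the contrast was 3P10 minus IgG1 by quasi-likelihood test, 2-sided, called at a Benjamini-Hochberg adjusted p below 0.05. Sums and shares per library were compared by exact permutation test. The test was checked on simulated data. Alternatives were DESeq2 1.42.0, other scalings, filters and models, and leaving out each library.

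Members and gene lists were chosen with earlier results of these data known. Genes named were the 15 largest rises and 15 largest falls without overlap at a mean of at least 10 CPM, up to 6 called members per list with the smallest adjusted p, and a panel of 24. Uncalled list members are named beside these. A few genes are not reported here. RefSeq on GRCm38.p6 gave promoters and gene neighbours. No pair of libraries of the same group differed by less than sampling noise, and pairs from different groups were not compared.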

Additional observations from a re-analysis of the deposited data

Results flagged for a closer look

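In 11 of 132 sets of libraries (44 genes in each of 3 groups) 1 library lay far from the others of its group by Dixon's test at the 95% level, which chance alone gives in about 1 in 20 sets. IgG1 replicate 2 gave 5 of the 11 and NTB replicate 4 gave 4.

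IgG1 replicate 2 was the highest IgG1 library for *Ucp1* at 3220 CPM (the nearest at 2890 CPM), *Rbp4* at 511 CPM (303 CPM), *Cyp26b1* at 33.9 CPM (25.1 CPM) and *4930452B06Rik* at 30.2 CPM (18.2 CPM). It was the lowest for *Igfbp4* at 122 CPM, where the nearest library had 199 CPM. In each of the 5 genes it lay on the side of the 3P10 libraries. IgG1 replicate 4 was the highest of its group for *Pam16* at 33.4 CPM (21.1 CPM). 3P10 replicate 5 was the lowest 3P10 library for *Adrb3* at 289.7 CPM, with the next at 465 CPM.

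Among the mice without a tumour, NTB replicate 4 was the highest library for *Fkbp5* at 94.9 CPM (20.9 CPM), *Cyp2b10* at 26.2 CPM (7.39 CPM) and *Cdh13* at 22.1 CPM (15.8 CPM), and the lowest for *H2-Eb1* at 1.64 CPM (8.11 CPM). In these 4 genes it lay on the side of the IgG1 libraries.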

How the results depend on the processing

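The number of called genes was 646 to 1120 when 1 library was left out, with 330 to 624 higher, 307 to 509 lower and 103 to 166 changed at least 2-fold. The lowest total came without IgG1 replicate 3 and the next, 650, without IgG1 replicate 5; without 3P10 replicate 3 the lower calls numbered 320. DESeq2 called 971 genes, of which 899 were shared, RLE scaling 1015, no filter 882, the stricter filter 1028, the 2 groups alone 957 and a muscle score as a term 1049. Total counts as the scale, added after the data were seen, gave 1035. A replicate block gave 712 calls; the numbers gave no sign of pairing, since same-numbered libraries had correlations of -0.147 to -0.0443. Of 234 called genes named by the rule, 162 kept their call in every alternative that gave them an adjusted p, 72 lost it in at least 1 (43 under the block, 55 without IgG1 replicate 3) and 0 reversed. List counts of 1 to 3 calls moved by 1 or more calls under many alternatives. About 1 M reads per library leave changes of low genes with wide errors.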

Other observations

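*Adrb3* and *Eif4ebp1*, with log2 fold changes of 2.30 and 1.55, are neighbours in RefSeq gene order, as are *H2-Ab1*, *H2-Aa* and *H2-Eb1*. Of 8673 pairs of neighbouring tested genes, 131 (1.51%) had both genes called, 73 in the same direction and 58 in opposite directions. The order is from GRCm38, whereas mm9 is the build named in the processing notes.

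The libraries of mice without a tumour differed in where they lay between the groups. On a log2 scale with the IgG1 mean at 0 and the 3P10 mean at 1, the median position over the 1013 called genes was 0.42, 0.75, 0.40, 0.20, 0.59 and 0.57 for NTB replicates 1 to 6, so 3 of the 6 lay nearer to IgG1 and 3 nearer to 3P10. The called genes were chosen by the contrast that sets this scale, and the positions are given as values only.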
